A study of Schizosaccharomyces pombe with 12 samples.

Results

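The genes described here are 8 fission yeast genes of the response to thiamine (vitamin B1), *thi1*, *thi2*, *thi4*, *thi5*, *thi9*, *nmt1*, *pho4* and *bsu1*. All are called thiamine-regulated here, though *thi1* and *thi5* encode transcription factors of that response. They were chosen by gene name from the 6988 features of each deposited table. The 12 libraries hold poly(A)+ RNA of 1 wild-type strain of *Schizosaccharomyces pombe*, named AGP72 and of mating type *h-*, grown at 30 °C. The study describes them as biological replicates, with 3 for each of 4 times. Cells at 0 h were in log phase in YES, a rich medium made from yeast extract. Cells at 2, 4 and 8 h had been moved to ePMGT(+PO4), a defined medium with phosphate and glutamate that supplies thiamine, other vitamins, adenine, uracil and amino acids. The study's strain list, which does not name AGP72, notes for all its strains mutant *ade6*, *his3*, *leu1* and *ura4* genes. No culture was kept in YES to 2, 4 or 8 h, so the medium, the handling and the time in culture cannot be told apart.

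Thiamine is built from a pyrimidine and a thiazole that are made separately and then joined, and its diphosphate is the cofactor of several central enzymes such as pyruvate dehydrogenase and transketolase. When fission yeast runs short of thiamine, transcription factors turn on the genes for its synthesis and uptake. When thiamine is supplied these genes are expressed less than when it is short. The name *nmt1* stands for "no message in thiamine", and its promoter is the standard repressible promoter of this yeast. Yeast extract is itself a source of B vitamins, so both media of this series can be expected to hold thiamine. No library came from cells made short of thiamine, so how far each gene was repressed was not measured.

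The deposited tables give the mean of 3 libraries at each time, as reads divided by a size factor that adjusts for sequencing depth. These means carry enough digits that the whole number of reads behind each of the 3 libraries could be solved, and the value of each library is given here as a normalized read. Libraries are called A, B and C within each time, from the largest size factor to the smallest, and a letter does not link libraries of different times. Solved reads came to between 9895204 and 15399230 per library, size factors ran from 0.861 to 1.26, and all 8 genes were solved at all 4 times. Of the mating type markers, the M-cell genes *mfm2*, *mam2*, *mfm1* and *mfm3* averaged 730, 107, 29.2 and 21.3 normalized reads at 0 h and the P-cell genes *map3* and *map2* 348 and 157, so markers of both types had reads in a strain labelled *h-*. At 2 h *mfm1* fell (-0.64 on the log2 scale, adjusted p = 0.0261 in limma) and no other marker passed the test. None passed at 4 h. At 8 h 3 of 4 M-cell genes rose (*mfm1*, *mfm2* and *mam2*, by 0.87, 1.19 and 1.21 on the log2 scale) and neither P-cell gene passed the test. At that time 24.3% of all features rose and 22.7% fell, and with so few markers the counts are a description.

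In both media *nmt1* was close to silent, at no more than 24.6 normalized reads in any library, and the other genes held from 378 to 3205. After the transfer *thi9*, *pho4* and *thi4* fell at all 3 times, *bsu1* rose at all 3 times, and *thi1* and *thi2* passed the test at none. *thi5* and *nmt1* passed at 8 h only. Changes are log2 differences with 95% confidence intervals from a single limma fit over 12 libraries and 5956 features, and "rose" and "fell" mean a Benjamini-Hochberg adjusted p of 0.05 or less over all of these features.

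At 2 h 1 of the 8 genes rose and 3 fell, where 15% of all features tested rose and 11.8% fell. The counts were again 1 and 3 at 4 h, against 18.4% and 16.4% of all features. They were 3 and 3 at 8 h, against 24.3% and 22.7%. With so many features passing at each time, the number of thiamine-regulated genes that passed is not a result about them as a group. No gene of the 8 met the 2-fold criterion (2-fold or more, 100 reads in the higher group and the same adjusted p) at any time, a criterion that 1.51%, 1.56% and 2.84% of features met at 2, 4 and 8 h. The median log2 differences of the 8 genes at 2, 4 and 8 h were -0.061, -0.042 and -0.053. Over the 5242 features with 100 reads or more, a set that leaves out *nmt1*, the medians were 0.001, -0.0022 and 0.025. All 3 comparisons share the 0 h libraries.

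**Figure D1:**
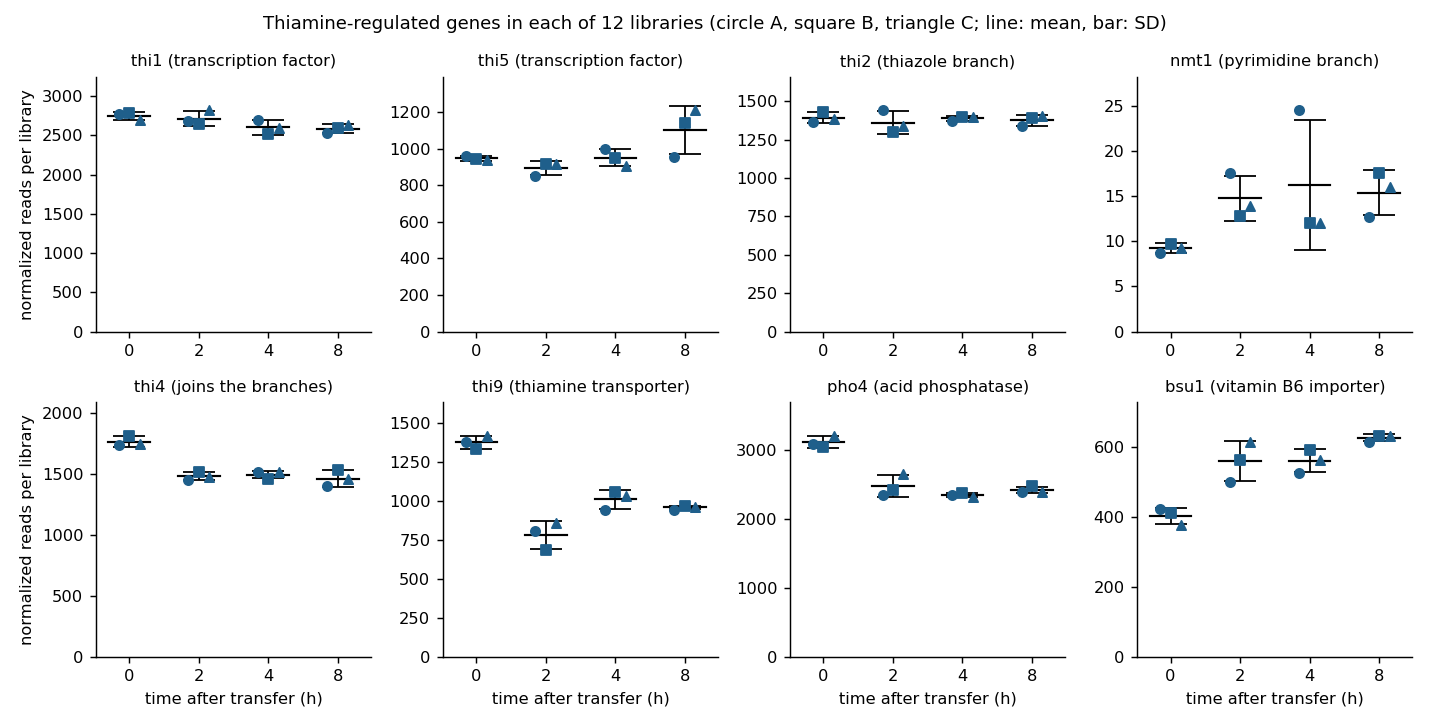
Normalized reads (vertical axis, from 0) of the 8 genes in each library at 0, 2, 4 and 8 h after transfer (horizontal axis). Markers are the libraries A, B and C, lines are means and bars are SDs over 3 libraries. The *thi9* libraries drop from 1331 to 1418 at 0 h to between 682 and 855 at 2 h, *bsu1* libraries climb above the 0 h range, and *nmt1* stays under 25 reads.

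Thi9 is the high-affinity thiamine importer of the plasma membrane, and its transcript showed the largest fall of the 8 genes. The 0 h libraries A, B and C held 1376, 1331 and 1418 normalized reads of *thi9*, and the 2 h libraries 809, 682 and 855. At 4 h they held 941, 1056 and 1031, and at 8 h 943, 966 and 962. Every library after the transfer lay below every 0 h library, the 2 h libraries were the lowest, and the 4 h and 8 h libraries overlapped. The mean was 1375 ± 43.2 (SD, n = 3) at 0 h and 782 ± 89.5 at 2 h, which is 1.76-fold lower. In limma the log2 difference at 2 h was -0.82 (SE 0.08, 95% interval -0.99 to -0.65, adjusted p = 3.82e-05). Later differences were smaller, at -0.45 after 4 h (adjusted p = 0.00181) and -0.52 after 8 h (adjusted p = 0.000354), or 1.36-fold and 1.44-fold lower.

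*thi9* was also the only one of the 8 genes to pass between consecutive times after the transfer. Its mean rose from 782 at 2 h to 1009 ± 60.4 at 4 h, a 1.29-fold increase, and the libraries of the 2 times did not overlap. The log2 difference was 0.37 (SE 0.08, 95% interval 0.20 to 0.54, adjusted p = 0.0143). Between these times 4.6% of all features rose and 5.44% fell. The call was lost when 4 h library B was left out (log2 0.34, adjusted p = 0.0565) or 4 h library C (0.36, adjusted p = 0.051), within a range of 0.000659 to 0.0565 over 17 other settings. From 4 h to 8 h *thi9* differed by -0.08 (95% interval -0.25 to 0.10, adjusted p = 0.517).

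The enzyme genes of thiamine synthesis did not get the same calls, and the differences between these genes were not tested. Thi2 makes the thiazole part, and its transcript gave the flattest course of the 8. Its libraries A, B and C held 1363, 1433 and 1383 normalized reads at 0 h and 1441, 1300 and 1341 at 2 h. They held 1371, 1397 and 1398 at 4 h and 1337, 1388 and 1406 at 8 h, so the libraries of every later time overlapped those of 0 h. The log2 differences of *thi2* were -0.035, -0.0046 and -0.017 at 2, 4 and 8 h, with 95% intervals of -0.13 to 0.06, -0.10 to 0.09 and -0.11 to 0.08 and adjusted p-values in limma of 0.577, 0.942 and 0.782. Any log2 change of *thi2* beyond -0.13 or 0.09 lay outside all 3 intervals.

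Thi4 phosphorylates the thiazole and joins it to the pyrimidine. Its transcript held 1736, 1813 and 1742 normalized reads in libraries A, B and C at 0 h. It held 1451, 1516 and 1474 at 2 h and 1513, 1458 and 1511 at 4 h, while the 8 h libraries held 1396, 1529 and 1457. Each later library was below the lowest 0 h library, and the later times overlapped each other. The mean fell from 1764 ± 42.7 (SD, n = 3) to 1480 ± 32.9, 1494 ± 31.1 and 1461 ± 66.7. The log2 differences of *thi4* were -0.25, -0.24 and -0.27 (SE 0.04 each), with adjusted p-values in limma of 0.00173, 0.00185 and 0.000432. The fall was thus small, 1.19-fold, 1.18-fold and 1.21-fold. In the RefSeq annotation of assembly ASM294v3, *cdb4* on the other strand covers 1223 of the 3316 exonic bases of *thi4*. *cdb4* averaged 8328, 7672, 7662 and 7128 normalized reads in the order of the times. Its part in the level and the fall of *thi4* was not tested. After 2 h no further change passed the test, with a difference for *thi4* of 0.01 from 2 h to 4 h (95% interval -0.08 to 0.10, adjusted p = 0.884) and of -0.03 from 4 h to 8 h (95% interval -0.12 to 0.06, adjusted p = 0.604).

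Nmt1 makes the pyrimidine part. The 0 h libraries A, B and C held 11, 10 and 8 raw reads of *nmt1*, and the 2 h libraries 22, 16 and 14. The 4 h libraries held 26, 12 and 11 and the 8 h libraries 16, 22 and 15. Every later library was above every 0 h library in normalized reads, but at these counts a few reads make the difference. Summed over 3 libraries the counts were 29, 52, 49 and 53 in the order of the times, with exact 95% Poisson intervals of 19.4 to 41.6, 38.8 to 68.2, 36.2 to 64.8 and 39.7 to 69.3 that cover counting error only. Normalized means were 9.26 ± 0.52 (SD, n = 3), 14.8 ± 2.47, 16.2 ± 7.22 and 15.4 ± 2.51.

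On the log2 scale with 1 read added, *nmt1* differed from 0 h by 0.61 at 2 h (adjusted p = 0.082) and by 0.67 at 4 h (adjusted p = 0.0505), neither of them called. At 8 h limma called the difference of 0.67 (SE 0.24, adjusted p = 0.0403). The 8 h call was lost in 6 of 12 fits that left out a library and in each of the 5 other fits, with adjusted p-values from 0.00259 to 0.124 over all 17. Without 4 h library A, the highest at that time, the 4 h difference was 0.35 (adjusted p = 0.098). Added reads shrink the differences of so low a gene, and the ratios of the means were 1.59, 1.75 and 1.67. Beside these ratios stands the level itself, which never passed 24.6 normalized reads in any library.

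The antisense RNA *prl10* covers all 1250 exonic bases of *nmt1* on the other strand in the RefSeq annotation of assembly ASM294v3, and averaged 427, 386, 454 and 443 normalized reads in the order of the times. The library kit keeps strand, and whether the counting used it was not stated. Counting without strand would assign reads under such a pair to neither gene. Of 487 features whose exons lie wholly inside exons on the other strand, 305 averaged 100 reads or more and 410 averaged 10 or more. The part of the overlap in the low *nmt1* reads was not tested. *prl10* passed the test at no time (log2 -0.15, 0.09 and 0.05, adjusted p = 0.114, 0.309 and 0.54).

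**Figure D2:**
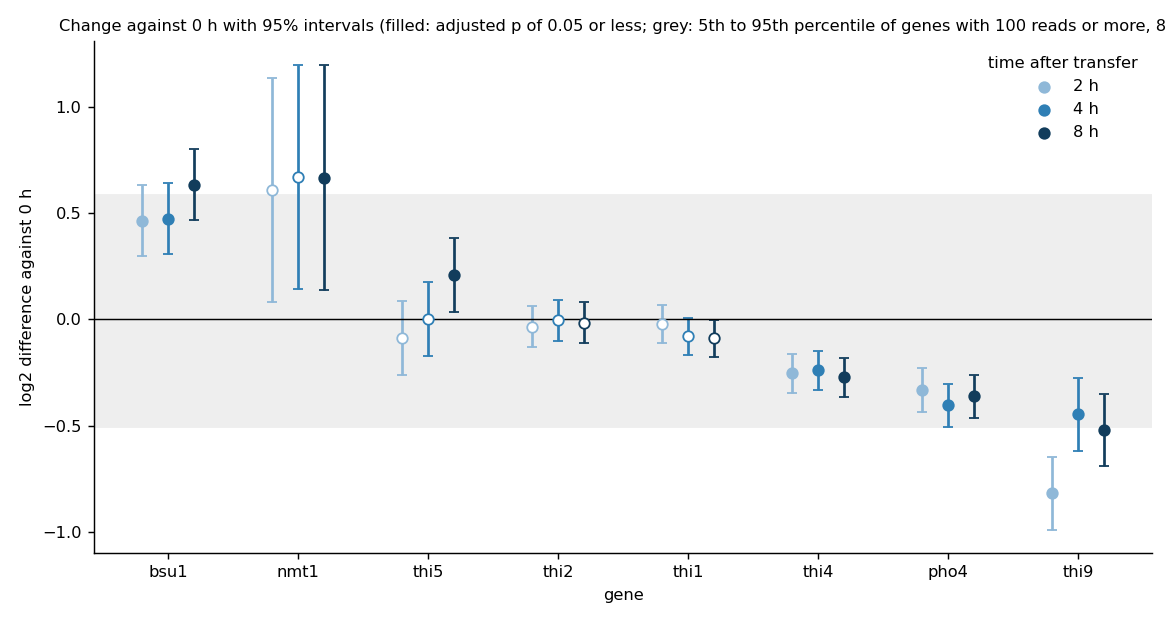
Log2 difference against 0 h (vertical axis) of the 8 genes (horizontal axis) at 2, 4 and 8 h, with 95% intervals from limma. Filled points passed at an adjusted p of 0.05 or less, and the grey band spans the 5th to 95th percentile of features with 100 reads or more at 8 h (-0.51 to 0.58). The band is for the 8 h points, and the same percentiles were -0.29 to 0.47 at 2 h and -0.36 to 0.47 at 4 h. *thi9* at 2 h is the lowest point at -0.82, and the *nmt1* intervals are the widest.

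Thi1 and Thi5 are the DNA-binding transcription factors of the group, and Thi1 is the activator that the thiamine genes need when thiamine is short. *thi1* held 2769, 2788 and 2696 normalized reads in libraries A, B and C at 0 h. It held 2679, 2642 and 2821 at 2 h and 2696, 2513 and 2601 at 4 h, while the 8 h libraries held 2526, 2597 and 2634. The 2 h libraries spanned those of 0 h, whereas the 4 h and 8 h libraries lay under the lowest 0 h library, 4 h library A by less than 1 read. The log2 differences of *thi1* were -0.02, -0.08 and -0.09 (SE 0.04 each), and limma gave adjusted p-values of 0.741, 0.144 and 0.0911. None passed, and the 95% interval at 8 h ran from -0.18 to -0.00057. With each library centred on its own median log2 level over well-expressed features, the 8 h value was -0.14 and passed. Its adjusted p in that limma fit was 0.0189, in a range of 0.0189 to 0.23 over 17 settings.

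*thi5* held 961, 943 and 937 normalized reads in libraries A, B and C at 0 h and 848, 913 and 915 at 2 h. It held 996, 947 and 904 at 4 h and 955, 1139 and 1209 at 8 h. At 8 h library A sat inside the 0 h range while B and C stood above every other library of the series, and the mean was 1101 ± 131 (SD, n = 3), the widest spread of the gene at any time. The log2 differences were -0.09 (adjusted p = 0.434), 0.0023 (adjusted p = 0.985) and 0.21 (SE 0.08, 95% interval 0.04 to 0.38, adjusted p = 0.0477), and limma called the 8 h value alone. That call was lost in 10 of 12 fits that left out a library. Over all 12 the log2 value ran from 0.14 (without 8 h library C) to 0.31 (without 8 h library A). It was also lost with centring on the median of well-expressed features (0.16, adjusted p = 0.116) and with no filter on low averages (adjusted p = 0.0575), in a range of 0.00203 to 0.173 over 17 settings. Neither regulator changed by as much as 1.5-fold in its means at any time.

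Pho4 is the thiamine-repressible acid phosphatase of the cell surface, which can free thiamine from its phosphates outside the cell, and it was the most abundant of the 8 transcripts per length. Its libraries A, B and C held 3087, 3038 and 3205 normalized reads at 0 h. They held 2349, 2410 and 2649 at 2 h and 2346, 2380 and 2317 at 4 h, while the 8 h libraries held 2392, 2468 and 2394. All 9 later libraries were below the 0 h libraries. Means fell from 3110 ± 85.9 (SD, n = 3) to 2469 ± 158, 2348 ± 31.3 and 2418 ± 43.5, or 1.26-fold, 1.32-fold and 1.29-fold. The log2 differences of *pho4* were -0.33, -0.41 and -0.36 (SE 0.05 each), with adjusted p-values in limma of 0.000643, 0.000145 and 0.000148. *pho4* did not pass between 2 h and 4 h (-0.07, 95% interval -0.17 to 0.03, adjusted p = 0.368) or between 4 h and 8 h (0.04, 95% interval -0.06 to 0.15, adjusted p = 0.549).

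An intergenic RNA on the other strand, SPNCRNA.1358, shares 114 bases with the *pho4* exons in ASM294v3. It averaged 434, 405, 252 and 219 normalized reads at the successive times, with log2 differences of -0.10 (adjusted p = 0.518), -0.78 (adjusted p = 0.000433) and -0.99 (adjusted p = 4.46e-05) in limma. Its part in the *pho4* values was not tested.

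Pho1 is the acid phosphatase of the phosphate regulon and a cell-surface enzyme like Pho4, so its transcript is set beside *pho4*. The *pho1* libraries averaged 18606 ± 721 (SD, n = 3) before transfer and then 9984 ± 607, 15869 ± 1087 and 19242 ± 1426. *pho1* fell at 2 h (log2 -0.90, adjusted p = 1.01e-05) and less so at 4 h (-0.23, adjusted p = 0.0289). At 8 h it differed by 0.05 (95% interval -0.11 to 0.20, adjusted p = 0.616). It rose from 2 h to 4 h by 0.67 (adjusted p = 0.000404) and from 4 h to 8 h by 0.28 (adjusted p = 0.022). At 8 h the *pho1* libraries overlapped those of 0 h, and the *pho4* libraries did not. The difference between the 2 genes was not tested.

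Bsu1 imports the vitamin B6 compounds pyridoxine, pyridoxal and pyridoxamine, and *bsu1* rose. Its libraries A, B and C held 421, 410 and 378 normalized reads at 0 h. They held 499, 562 and 614 at 2 h and 525, 592 and 563 at 4 h, while the 8 h libraries held 615, 630 and 632. All later libraries were above all 0 h libraries, and the 8 h libraries also lay above the 4 h libraries. Means were 403 ± 22.7 (SD, n = 3), 558 ± 57.7, 560 ± 33.3 and 626 ± 9.48, which is 1.39-fold higher at 2 h and at 4 h and 1.55-fold higher at 8 h. The log2 differences of *bsu1* were 0.47, 0.47 and 0.63 (SE 0.08 each), with adjusted p-values in limma of 0.00163, 0.00121 and 8.89e-05. The step from 4 h to 8 h, 0.16 (95% interval -0.01 to 0.33, adjusted p = 0.158), did not pass.

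From 4 h to 8 h none of the 8 genes passed in limma, where 8.26% of all features rose and 10.7% fell. One, *thi5*, had an unadjusted p under 0.05 (0.0234) for a log2 difference of 0.21, and a fit with a variance trend called it (adjusted p = 0.034, range over 17 settings 0.0108 to 0.272).

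Levels of different genes were compared per kilobase of exon, with lengths from ASM294v3. At 0 h the order was *pho4* (1824 ± 50.4 normalized reads per kilobase, SD, n = 3), *thi2* (1187 ± 30.6), *thi1* (1043 ± 18.4), *thi9* (589 ± 18.5), *thi4* (532 ± 12.9), *thi5* (345 ± 4.62), *bsu1* (198 ± 11.2) and *nmt1* (7.41 ± 0.42). No 2 neighbours in this order overlapped in their libraries. The change after transfer lay in the middle of the order. At 2 h *thi9* dropped below *thi4* to 335 ± 38.3 per kilobase and overlapped *thi5* at 325 ± 14.0. At 4 h *thi9* (432 ± 25.9) overlapped *thi4* (450 ± 9.39), and at 8 h it overlapped *thi5* (410 ± 5.26 and 402 ± 47.9). The 3 highest genes and the 2 lowest kept their places at all times. *nmt1* stood at 11.8, 13.0 and 12.3 per kilobase at 2, 4 and 8 h, far under *thi2*, the gene of the other branch, at 1159, 1183 and 1173. None of the 51-base windows of the 8 genes, the read length of these libraries, occurred elsewhere in that assembly, so reads of these genes had no exact second place to map.

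**Figure D3:**
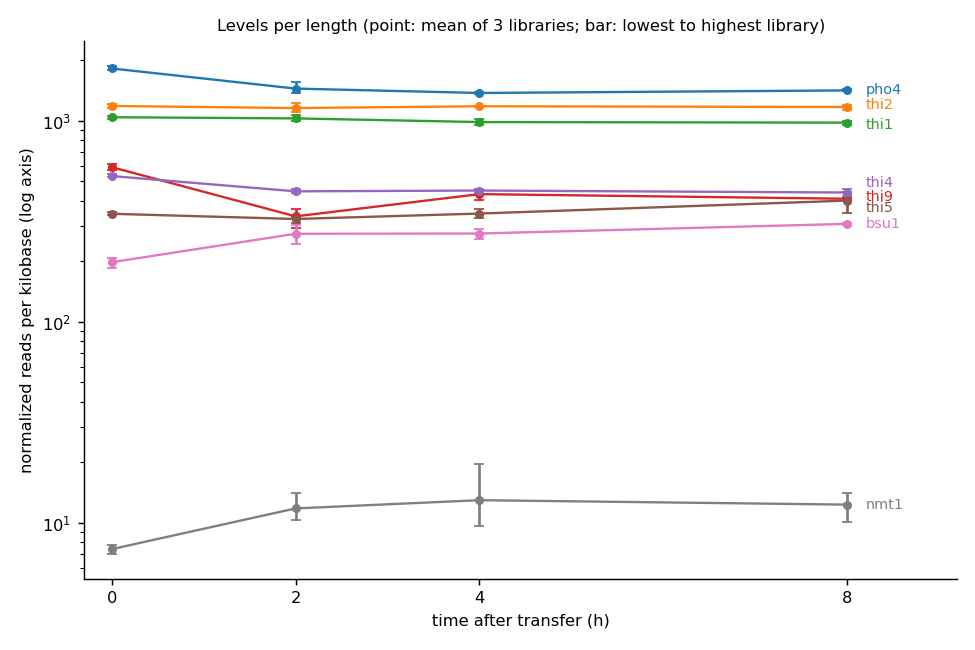
Normalized reads per kilobase of exon (vertical axis, log scale) against time after transfer in hours. Points are means of 3 libraries and bars run from the lowest to the highest library. *thi9* crosses *thi4* between 0 h and 2 h, and *nmt1* lies near 10 while the other 7 genes lie between 198 and 1824.

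The other genes of thiamine metabolism were 6 features whose product names thiamine, its precursors or the TENA/THI family. Of these 3 fell at 2 h, 3 fell and 1 rose at 4 h, and 2 fell at 8 h. Of all features 11.8%, 16.4% and 22.7% fell at these times, and 18.4% rose at 4 h, so with 6 genes the counts are given as a description. Their median log2 differences were -0.11, -0.14 and -0.05. The one that stood out was SPBP8B7.18c, annotated as a phosphomethylpyrimidine kinase, the step after Nmt1. Its 0 h libraries lay between 1396 and 1493 normalized reads, its 2 h libraries between 777 and 844, its 4 h libraries between 828 and 938 and its 8 h libraries between 918 and 942. No later library overlapped those of 0 h. On the log2 scale SPBP8B7.18c fell by 0.83, 0.69 and 0.63 at the 3 times (SE 0.05 each, adjusted p = 2.11e-06, 7.42e-06 and 7.43e-06).

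The 2 other features annotated as phosphomethylpyrimidine kinases passed at no time. SPBP8B7.17c differed by -0.06, -0.07 and 0.03 (adjusted p = 0.327, 0.223 and 0.596) and SPCC18B5.05c by 0.03, 0.08 and 0.19 (adjusted p = 0.844, 0.499 and 0.0874). *tnr3*, for the kinase that makes thiamine diphosphate, fell at 2 h (-0.16, adjusted p = 0.0441) and 4 h (-0.30, adjusted p = 0.00198) and differed by -0.14 at 8 h (adjusted p = 0.0505). SPBC1604.04, annotated as the mitochondrial carrier of thiamine diphosphate, fell at all 3 times by 0.24, 0.20 and 0.14 (adjusted p = 0.00843, 0.0144 and 0.0477). SPBC530.07c, of the TENA/THI family, rose at 4 h alone (0.17, adjusted p = 0.0209).

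Among 9 genes of enzymes that use thiamine diphosphate, 6 could be tested. None of the 6 passed at 2 h in limma, where *pdc201* had an unadjusted p of 0.0471. At 4 h 1 rose, the oxoglutarate dehydrogenase subunit gene *kgd1* (0.19, adjusted p = 0.0134). At 8 h *kgd1* (0.21, adjusted p = 0.0061) and the pyruvate decarboxylase gene *pdc201* (0.82, adjusted p = 0.00289) rose and the acetolactate synthase gene *ilv1* fell (-0.32, adjusted p = 2.88e-05). At 2, 4 and 8 h 15%, 18.4% and 24.3% of all features rose and 11.8%, 16.4% and 22.7% fell. Beside these shares the counts of 6 genes are a description. The pyruvate dehydrogenase genes *pda1* and *pdb1* passed at no time, with differences between -0.12 and 0.05. *tkt1* (transketolase) and *pdc101*, the main pyruvate decarboxylase transcript here, were too abundant for their libraries to be solved. The authors' means for *tkt1* were 30738, 27740, 31001 and 31413 normalized reads at 0, 2, 4 and 8 h and for *pdc101* 88102, 77128, 91058 and 92486. *pdc102*, at under 5 reads, was below the filter.

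**Figure D4:**
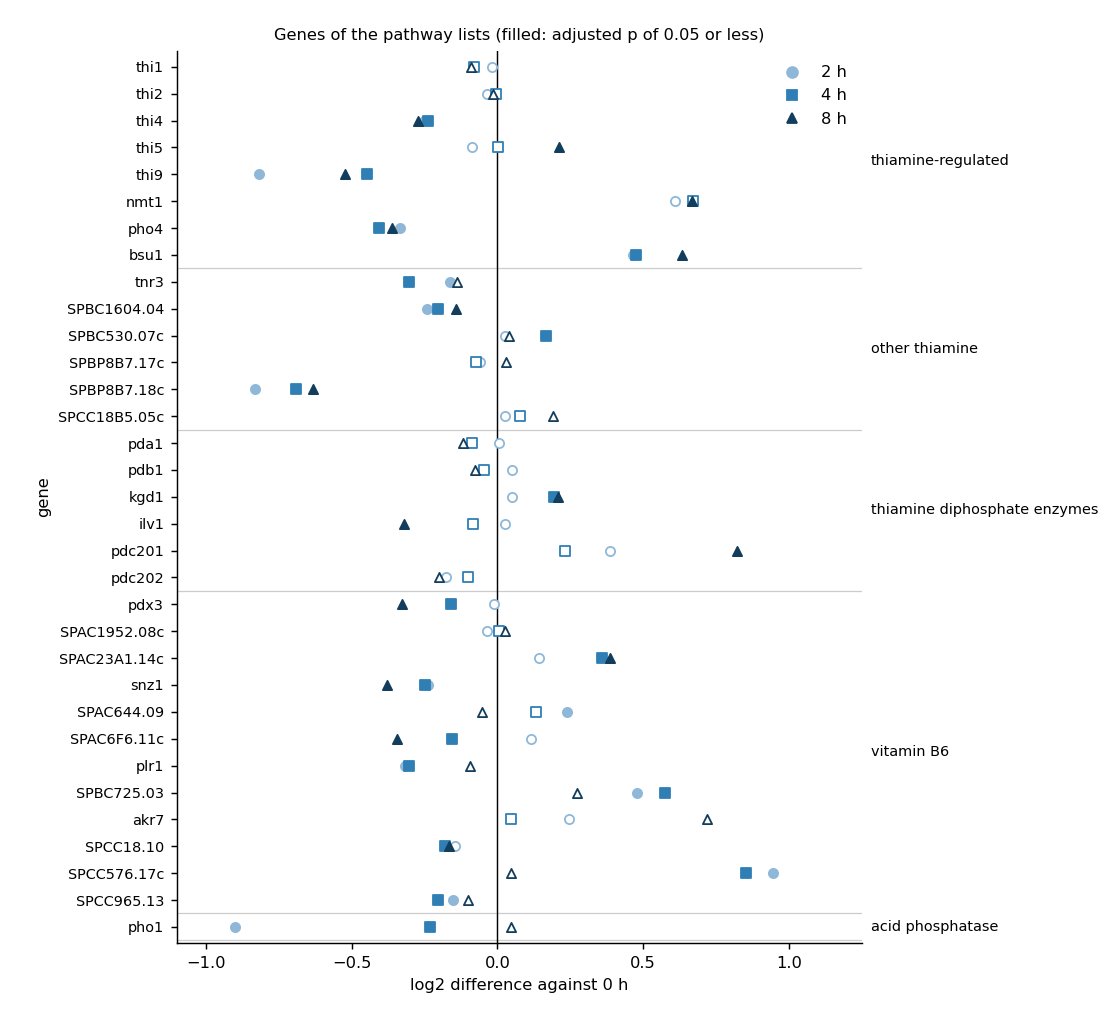
Log2 difference against 0 h (horizontal axis) of the 8 thiamine-regulated genes and of the tested genes of the pathway lists (vertical axis, grouped by list). Circles are 2 h, squares 4 h and triangles 8 h, filled where the adjusted p was 0.05 or less. SPBP8B7.18c lies beside *thi9* on the left at 2 h (-0.83 and -0.82), and SPCC576.17c is the farthest to the right at 2 h (0.94).

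The vitamin B6 genes, 12 features whose product names a pyridoxine compound, went both ways, with 3 that rose and 3 that fell at 2 h. The counts were 3 and 6 at 4 h and then 1 and 4. The shares of all features that rose and fell were 15% and 11.8%, then 18.4% and 16.4%, then 24.3% and 22.7%. Their median log2 differences were 0.05, -0.08 and -0.07. SPCC576.17c, annotated like *bsu1* as a transporter of these compounds, held 308 to 341 normalized reads at 0 h, 556 to 738 at 2 h, 562 to 603 at 4 h and 312 to 352 at 8 h. Its rise was 0.94 at 2 h (SE 0.10, adjusted p = 7.48e-05) and 0.85 at 4 h (adjusted p = 0.000136). At 8 h it overlapped its 0 h libraries (0.05, 95% interval -0.17 to 0.26, adjusted p = 0.719). From 4 h to 8 h it fell by 0.80 (adjusted p = 0.00113), whereas *bsu1* gave its highest libraries at 8 h.

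The third transporter annotated for pyridoxal compounds, SPCC965.13, fell at 2 h (-0.15, adjusted p = 0.0269) and 4 h (-0.20, adjusted p = 0.00535). *snz1*, for the enzyme that makes pyridoxal phosphate, fell at all 3 times (-0.24, -0.25 and -0.38, adjusted p = 0.0277, 0.0189 and 0.00129). The phosphate oxidase gene *pdx3* fell at 4 h and 8 h (-0.16 and -0.33, adjusted p = 0.00776 and 5.81e-05), while SPBC725.03, annotated with the same activity, rose at 2 h and 4 h (0.48 and 0.57, adjusted p = 0.00951 and 0.00291). *akr7*, a pyridoxal reductase gene with few reads, was at 30.8 reads at 0 h and 51.3 at 8 h (0.72, adjusted p = 0.0517). The far more abundant *plr1* of the same list, at 5965 reads at 0 h, fell at 2 h and 4 h (-0.32 and -0.30, adjusted p = 0.011 and 0.0101). It did not pass at 8 h (-0.09, adjusted p = 0.3145). SPAC23A1.14c, the list gene that rose at 8 h (0.39, adjusted p = 0.000434), also rose at 4 h (0.36, adjusted p = 0.00138).

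**Figure D5:**
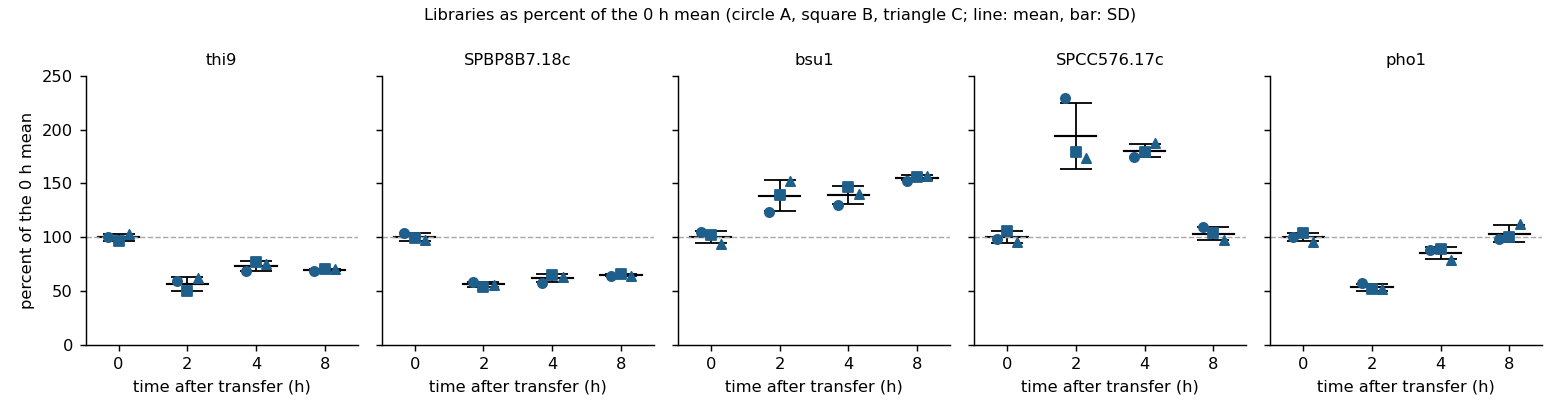
Each library as percent of the mean at 0 h (vertical axis, from 0) against time after transfer in hours, for *thi9*, SPBP8B7.18c, *bsu1*, SPCC576.17c and *pho1*. Markers are libraries A, B and C, lines are means, bars are SDs over 3 libraries and the dashed line is 100. SPCC576.17c and *pho1* are back near 100 at 8 h, and *thi9*, SPBP8B7.18c and *bsu1* are not.

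The transcripts whose courses were most like those of the genes that moved 1.5-fold were found by the Euclidean distance of the log2 ratios of the means at 2, 4 and 8 h to 0 h, over 4752 other coding features with 100 reads or more at every time. For *thi9* the nearest were *met10*, a sulfite reductase subunit gene (distance 0.25), SPBP8B7.18c (0.27) and *pfl3*, a flocculin gene (0.34). With each course centred on its mean over the 4 times instead, 1 of these, SPBP8B7.18c, stayed among the nearest 3. For *bsu1* the nearest were *pfl4*, another flocculin gene (0.05), *fnx2*, a vacuolar amino acid transporter gene (0.05), and *klf1*, a transcription factor gene (0.07), and all 3 stayed. For *nmt1*, over 4753 features and from few reads, they were SPBP35G2.17, *tah18* and *gcv1* (0.10, 0.13 and 0.13), of which 2 stayed. *nmt1*, under 100 reads, could not be a nearest course itself. Among the other thiamine-regulated genes the nearest ranked 43rd for *thi9* (*pho4*), 58th for *nmt1* (*bsu1*), 124th for *pho4* (*thi4*), 388th for *thi1* (*thi2*), 495th for *thi4* (*pho4*), 526th for *thi2* (*thi1*), 1302nd for *thi5* (*thi2*) and 1813th for *bsu1* (*thi5*). These ranks are a description, with no test.

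Of the 16 coding genes next to these 8 on the chromosomes, 14 could be tested, and 2, 8 and 7 of them passed at 2, 4 and 8 h, beside 1593, 2072 and 2801 of all 5956 features. Their log2 differences follow in the order of the times. The neighbours of *thi1* were *nob1* at -0.13, -0.28 and -0.57 (adjusted p = 0.0748, 0.00193 and 9.36e-06) and *tea3*, which passed at no time. Those of *thi2* were *tda1* at 0.02, -0.14 and -0.25 (adjusted p = 0.728, 0.012 and 0.000289) and *sec9* at 0.12, 0.21 and 0.34 (adjusted p = 0.0802, 0.00758 and 0.000268). Next to *thi5*, SPBP8B7.31 gave -0.23, -0.37 and -0.29 (adjusted p = 0.0548, 0.00592 and 0.0125) and *abz1* passed at no time. SPAC9.11, next to *thi9*, gave -0.21, -0.20 and -0.03 (adjusted p = 0.0263, 0.0234 and 0.67). *apq12*, next to *pho4*, gave -0.24, -0.26 and -0.15 (adjusted p = 0.041, 0.0207 and 0.117). The neighbours of *bsu1* were *pan3* at 0.06, 0.22 and 0.20 (adjusted p = 0.454, 0.0148 and 0.0136) and SPAC17A2.02c, which passed at no time. *gut2*, next to *nmt1*, rose at 4 h and 8 h (0.37 and 0.77, adjusted p = 0.00658 and 4.3e-05), and SPCC1223.01, on its other side, passed at no time. *cdb4*, next to *thi4*, overlaps it on the other strand in ASM294v3 and differed by -0.12, -0.12 and -0.22, passing at 8 h (adjusted p = 0.00245). *cnl2*, on the other side of *thi4*, passed at no time, and *met26* beside *thi9* and *eca39* beside *pho4* were too abundant to be solved.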

How the data were processed

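Poly(A)+ RNA was sequenced in paired 51-base reads. Per the labels and the paper, reads were aligned by the authors to ASM294v2 with HISAT2 2.1.0, counted over exons with HTSeq 0.10.0 and normalized with DESeq2, whose version was not stated. The tables the authors deposited hold group means of counts divided by size factors, a signal, which were used. They also hold an overall mean, fold changes, standard errors, test statistics and p-values, which were not.

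A group mean is a sum of 3 whole read numbers, each times a fixed step. The steps were read from the lowest values, and the reads of each library were solved for means up to 20000. Of 6988 features, 6825 were solved at all times. The features not solved at a time held from 29.2% (2 h) to 33.3% (4 h) of the summed means of that time. Of deliberately shifted smaller values, 2, 0, 0 and 5 (of 4758, 4737, 4714 and 4738) were solved in the order of the times, and of larger ones 23, 28, 18 and 21 (of 1647, 1688, 1701 and 1704).

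The test was limma 3.58.1 (R 4.3.3) on log2(normalized reads + 1) over 12 libraries and the 5956 solved features averaging 10 reads or more, after tests on simulated data. Depth limits low genes such as *nmt1*, and means above 20000 have no test. Alternatives were pseudocount 10, centring, no filter, other thresholds, leaving out each library and, chosen after seeing the data, a variance trend and voom weights.

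Members and lists were chosen with earlier results of these data known. Named are all 8 genes, listed genes (by product or enzyme name) past 1.5-fold or discussed beside a member, the 3 nearest courses of members that moved 1.5-fold, and the coding neighbour on each side. Lengths, neighbours and overlaps come from RefSeq ASM294v3, and no positions are given.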

Additional observations from a re-analysis of the deposited data

Results flagged for a closer look

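The fall of *thi9* from 0 h was smaller at 4 h than at 2 h in the main fit. Tested directly in limma, the 4 h libraries were 0.37 higher than the 2 h libraries on the log2 scale (SE 0.08, adjusted p = 0.0143). All 3 libraries at 4 h lay above all 3 at 2 h. In limma the call was lost when 4 h library B (adjusted p = 0.0565) or C (adjusted p = 0.051) was left out. None of the other 7 genes passed that test between 2 h and 4 h or between 4 h and 8 h.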

How the results depend on the processing

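No paired analysis was possible because the solved libraries could not be matched to the replicate numbers of the samples. All calls against 0 h of *thi9*, *pho4*, *thi4* and *bsu1* held, in direction and threshold, under 17 other settings each. The 8 h calls of *nmt1* and *thi5* and the 4 h against 2 h call of *thi9* did not, as given with those genes. *nmt1* passed at 2 h without 4 h library A (0.61, adjusted p = 0.00909, range over settings 0.00909 to 0.213) and at 4 h without 2 h library A or 4 h library B or C (0.67, 0.83 and 0.83), while without 4 h library A its 4 h value dropped to 0.35. *thi5* passed from 4 h to 8 h without 8 h library A (0.31), and leaving out a library gave 0.14 to 0.31 there. Signs turned only in differences that had passed no test. Centring took *thi5* at 4 h to -0.028, and leaving out a library gave -0.033 to 0.037 there. For *thi2* these ranges were -0.020 to 0.016 at 4 h, -0.032 to 0.0045 at 8 h, -0.0018 to 0.073 for 4 h against 2 h and -0.027 to 0.0091 for 8 h against 4 h. They were -0.071 to 0.079 for *bsu1*, -0.26 to 0.22 for *nmt1* and -0.0013 to 0.030 for *thi4* from 2 h to 4 h, and -0.17 to 0.32 for *nmt1* and -0.034 to 0.016 for *thi1* from 4 h to 8 h.

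Over all features, leaving out a library gave 1144 to 1520 calls at 2 h (1593 with all libraries), 1502 to 2362 at 4 h (2072), 2380 to 3026 at 8 h (2801), 348 to 1090 for 4 h against 2 h (598, the highest without 2 h library A) and 584 to 1477 for 8 h against 4 h (1128). Calls of 2-fold or more stayed at 86 to 96, 92 to 98, 165 to 177, 11 to 15 and 14 to 18. At a fold of 1.5 these became 214, 251, 446, 91 and 93, and at a minimum of 10 reads 141 at 4 h, 258 at 8 h, 22 for 4 h against 2 h and 35 for 8 h against 4 h. The cause of these changes was not tested.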
